A study of Mus musculus with 6 samples.

Results

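Tight junctions seal the epithelia of the cochlear duct, and 8 genes that encode their components or partners were described in cochlear duct RNA of mice with 1 copy of Gfi1 replaced by Cre. The genes were Cldn9, Cldn11, Cldn14, Marveld2, Ildr1, Lsr, Ocln and Tjp1. They were taken by symbol from the 14865 genes of the expression table, and all 8 were among the 14455 genes tested, the test being limited to genes that reached 40 normalized reads somewhere among the 6 libraries. RNA was extracted at postnatal day 8 from cochlear ducts of C57BL/6 mice of 2 genotypes. The 3 Gfi1+/+ libraries each came from 1 mouse, and the 3 Gfi1cre/+ libraries each came from a pool of 3 mice. Gfi1cre/+ mice carry a knock-in in which Cre takes the place of most of the Gfi1 coding exons on 1 chromosome, so that Cre follows the Gfi1 promoter and Gfi1 itself, a transcription factor of hair cells, has 1 intact copy left. The comparison asks whether RNA levels of the tight junction genes differ in mice with this allele.

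The endolymph of the cochlear duct is rich in potassium and holds a positive voltage, and both depend on epithelial sheets that let few ions pass between cells. Claudins form the strands of the tight junction and set which ions may pass, while occludin and tricellulin belong to the MARVEL family of membrane proteins. Tricellulin gathers at points where the corners of neighbouring cells meet, and angulins, the family of Ildr1 and Lsr, bring it there. ZO-1, the product of Tjp1, ties the strands to actin from within the cell. Mutations of Cldn14, Marveld2 and Ildr1 cause deafness in people, and mice mutant for Cldn9, Cldn11 or Ocln lose hearing.

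All of the 8 genes lie on autosomes of the GRCm38 build, by the GENCODE M21 annotation. Ocln, at 100496507 to 100552718, and Marveld2, at 100595957 to 100616971, are both on the minus strand of chromosome 13. Cldn14, at 93919031 to 94008837 on the minus strand, and Ildr1, at 36693978 to 36726804 on the plus strand, share chromosome 16. Lsr, at 30957770 to 30973464, and Tjp1, at 65296165 to 65527781, are on the minus strand of chromosome 7. Cldn9 spans 23682584 to 23684026 on the minus strand of chromosome 17, and its 3′ end is 137 bases from that of Cldn6, which is on the plus strand. Cldn11 spans 31149920 to 31164324 on the plus strand of chromosome 3.

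Promoter sequence bears on the comparison because Gfi1 encodes a DNA-binding repressor. RefSeq windows on GRCm38.p6, running from 250 bases before to 50 after an annotated start, were matched for 7 of the 8 genes and gave 11 windows, some of which overlap. Cldn9 had no match. The core letters of the GFI1 motif, AATCAC, were searched on both strands and were in 0 of the 11 windows, against 10.37% of all 32851 windows. The grainyhead motif AACCGGTT, named for a family of epithelial factors, was also in 0 of the 11, against 0.15% of all windows. A window without these letters says nothing of binding elsewhere. CACCTG, the E-box letters read by the SNAI and ZEB repressors of epithelial genes, was in 7 of the 11 windows, against 20.21% of all windows. The 7 came from 5 genes (Lsr, Ocln, Marveld2, Ildr1 and Cldn14). They repeat 1 site in overlapping windows of Ocln and 1 in those of Marveld2. GC content ran from 48.0% to 68.0% in the 11 windows, against a median of 52.67% in all windows. Its part in these matches was not tested. The windows of Lsr, Ildr1 and Marveld2 are shown because these genes encode the angulins among the 8 genes and the protein that angulins recruit. Capitals mark CACCTG or its reverse complement CAGGTG, and each sequence reads 5′ to 3′ on the strand of its gene, chr7:30973420-30973719 minus for Lsr, chr16:36693728-36694027 plus for Ildr1 and chr13:100616895-100617194 minus for Marveld2.
Lsr: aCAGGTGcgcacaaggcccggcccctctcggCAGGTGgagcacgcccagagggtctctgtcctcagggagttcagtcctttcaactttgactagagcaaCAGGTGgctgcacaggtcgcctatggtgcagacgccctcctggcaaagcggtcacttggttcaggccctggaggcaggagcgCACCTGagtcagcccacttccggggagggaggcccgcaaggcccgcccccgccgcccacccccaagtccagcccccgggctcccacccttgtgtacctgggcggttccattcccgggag
Ildr1: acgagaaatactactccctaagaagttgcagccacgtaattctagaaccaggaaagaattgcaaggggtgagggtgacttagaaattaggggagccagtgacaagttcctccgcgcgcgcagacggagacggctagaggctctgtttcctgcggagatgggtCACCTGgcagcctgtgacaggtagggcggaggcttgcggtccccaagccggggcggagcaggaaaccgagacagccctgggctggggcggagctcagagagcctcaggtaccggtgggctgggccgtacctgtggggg
Marveld2: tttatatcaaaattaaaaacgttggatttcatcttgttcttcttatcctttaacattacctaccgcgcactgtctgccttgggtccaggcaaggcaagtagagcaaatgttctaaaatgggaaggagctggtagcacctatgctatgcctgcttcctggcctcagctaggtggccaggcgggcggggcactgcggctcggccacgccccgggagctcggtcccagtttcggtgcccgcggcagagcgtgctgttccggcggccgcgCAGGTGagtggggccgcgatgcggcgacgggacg
The Lsr window held 4 matches, which began 249, 219, 151 and 69 bases before the annotated start. The single match of Ildr1 began 88 bases before its start, and that of Marveld2 began 16 bases after it. These are matches of letters, and no binding was measured.

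Before the genes themselves, the libraries were checked against their labels. Recovered reads on genes ran from 13603908 to 16136022 in the Gfi1+/+ libraries and from 17939607 to 19359753 in the Gfi1cre/+ libraries. Depth thus cannot be told apart from genotype here. Over all libraries, 3 reads corresponded to 2.61 to 3.70 normalized reads. Gfi1 was at 147, 160 and 152 normalized reads in Gfi1+/+ and at 136, 130 and 139 in Gfi1cre/+, lower in all 3 heterozygous libraries. Such separation, in either direction, was seen for 7.52% of all genes tested, and Gfi1 did not pass an unadjusted p of 0.05 by limma. The authors state that what remains of the transcript on the knock-in allele still adds reads. By RT-qPCR on newborn cochleae, they report significantly less transcript of the replaced exons and no change for exons that both alleles keep. Cochlear epithelial markers were present throughout, with a summed level over 6 genes of 17631 to 18699 in Gfi1+/+ and 18332 to 18419 in Gfi1cre/+, and 0 of the 6 passed an unadjusted p of 0.05. Reads on 5 Y-linked genes summed to 0 to 2 in the Gfi1+/+ libraries and to 933 to 1754 in the Gfi1cre/+ libraries, so sex and genotype cannot be told apart here. Likewise, every heterozygous library was a pool, so pooling cannot be told apart from genotype. Summed levels of 8 hair cell genes were 4203 to 4446 in Gfi1+/+ and 3928 to 4169 in Gfi1cre/+, with 0 of 8 past an unadjusted p of 0.05 by limma. Every heterozygous sum was below every wild-type sum, and 6 of the 8 genes had lower means in Gfi1cre/+. The authors report from their RNA-seq a slight but significant decrease of larger sets of hair cell-enriched transcripts. All 6 neuron genes had lower means in Gfi1cre/+, and 4 of them passed it, against 3.04% of all genes tested. Their sums were 8534, 2674 and 1513 in Gfi1+/+ replicates 1 to 3 and 1086 to 1836 in Gfi1cre/+. The wild-type mean was thus raised mostly by replicate 1, and replicate 3 lay inside the heterozygous range. The Gfi1+/+ replicate 1 library stood apart from the rest, with a summed level of 5 oligodendrocyte genes of 4355 against 170 to 253 in the other 5 libraries.

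No member of the 8 passed the test for a genotype difference. With limma on log2 values and Benjamini-Hochberg adjustment over all genes tested, 0 of 8 had an adjusted p under 0.05, against 0.0277% of all genes tested, and 0 of 8 had an unadjusted p under 0.05, against 3.04%. DESeq2 and edgeR on the recovered reads also gave 0 of 8 at either limit. Log2 fold changes of Gfi1cre/+ against Gfi1+/+ lay between -0.05 and 0.12, with 6 above 0 and 2 below. Across all genes tested, 49.9% were above 0. The median over the 8 genes was 0.04, and the median over all genes was -0.00012 with quartiles of -0.06 and 0.05. The 95% intervals of the 8 genes reached at most to -17.3% (Cldn14) and 23.9% (Marveld2) from the Gfi1+/+ level. A change of 2-fold in either direction was thus outside all of them. Other intervals were narrower, such as -5.12% to 12.1% for Tjp1. A change inside the interval of a gene itself is not excluded for that gene. In such bulk RNA, fewer cells of a type and less RNA per cell cannot be told apart. The limma p-values rest on the spread among 3 libraries per genotype, moderated with that of all genes tested. That spread mixes single mice in Gfi1+/+ with pools of mice in Gfi1cre/+.

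**Figure D1:**
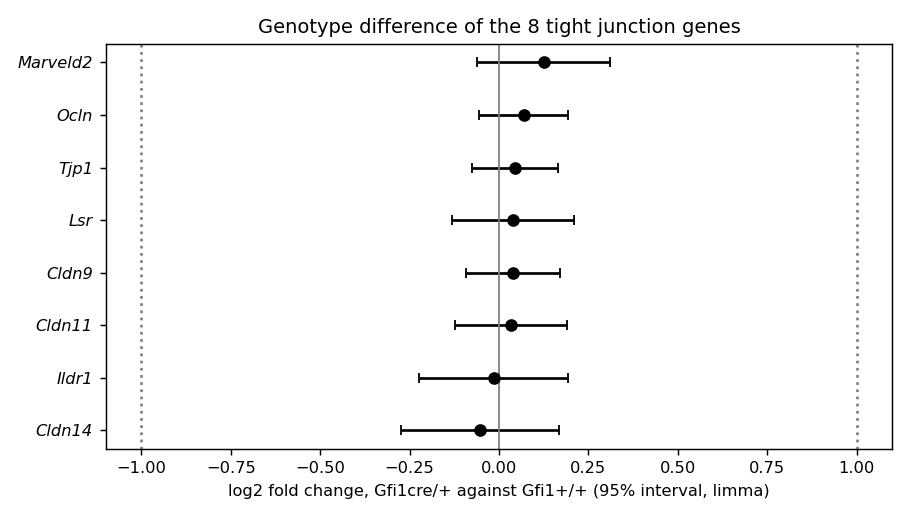
Log2 fold change of each of the 8 genes, Gfi1cre/+ against Gfi1+/+, with its 95% interval from limma (n = 3 libraries per genotype); dotted lines mark a 2-fold change. Every interval includes 0, and the widest reach is 0.31 for Marveld2 and -0.27 for Cldn14.

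Cldn11, the claudin of the basal cells that wall off the stria vascularis, was the most abundant of the 8 genes. Its normalized reads were 10304, 10838 and 9588 in Gfi1+/+ replicates 1 to 3 and 11120, 10172 and 10137 in Gfi1cre/+ replicates 1 to 3. The genotypes overlapped, with a heterozygous library highest and a wild-type library lowest. The log2 fold change was 0.03 with a standard error of 0.0692 and a 95% interval of -0.12 to 0.19.

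Cldn11 is also the claudin of oligodendrocyte myelin, so it was set beside the library that held oligodendrocyte RNA. Mobp, a gene of central myelin, was at 2235 normalized reads in Gfi1+/+ replicate 1 and at 4.19 to 27.0 in the other 5 libraries. Olig1, a factor of the oligodendrocyte lineage, was at 460 in that library against 3.77 to 15.98. Mag, which Schwann cells make as well, was at 1322 against 126 to 232. Cldn11 in that library was 0.994 times the mean of the other 5 and lay inside their range of 9588 to 11120. That range is wider than the whole level of Olig1 there, so a part of this size in Cldn11 would not be visible and was not tested.

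**Figure D2:**
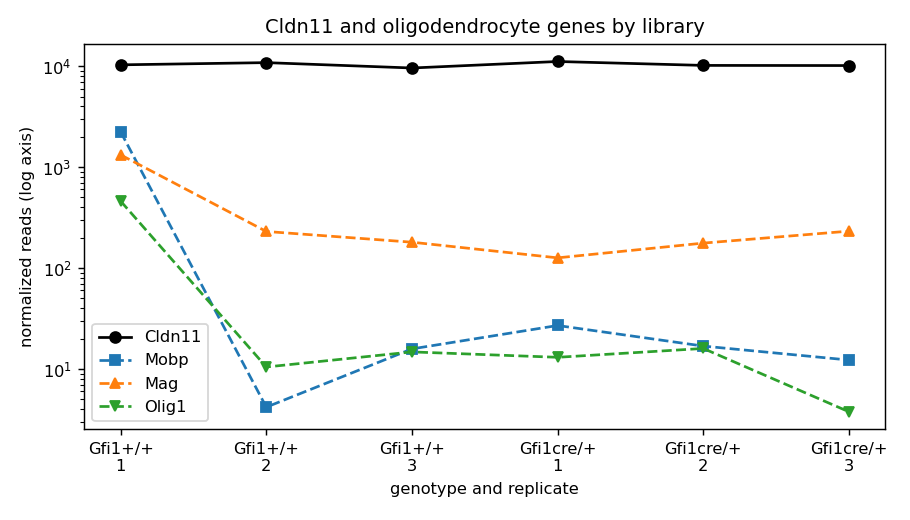
Normalized reads (log axis) of Cldn11 and of the oligodendrocyte genes Mobp, Mag and Olig1 in each of the 6 libraries. The 3 oligodendrocyte genes peak in Gfi1+/+ replicate 1, where Cldn11, at 10304, lies within the range of the other libraries.

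Cldn9, a claudin of hair cells and supporting cells, was the next most abundant. It was at 3955, 3831 and 4231 normalized reads in Gfi1+/+ and at 3962, 4150 and 4227 in Gfi1cre/+. All heterozygous values of Cldn9 lay inside the wild-type range. The log2 fold change was 0.04 with an interval of -0.09 to 0.17. Its neighbour Cldn6 was more variable, at 313 to 542 in Gfi1+/+ and 375 to 406 in Gfi1cre/+, and the annotated exons of both genes share no base.

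Cldn14, another claudin of the organ of Corti, was far less abundant. Normalized reads were 290, 261 and 327 in Gfi1+/+ and 299, 273 and 271 in Gfi1cre/+, with the wild-type libraries both the highest and the lowest. The log2 fold change was -0.05 with a standard error of 0.0977, the largest of the 8, and an interval of -0.27 to 0.17. Between 235 and 343 recovered reads lay behind each Cldn14 value, the fewest among the 8 genes at the lower end.

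Occludin, encoded by Ocln, was the only one of the 8 whose libraries did not overlap between genotypes. Ocln was at 873, 845 and 899 normalized reads in Gfi1+/+ and at 904, 907 and 932 in Gfi1cre/+. All 3 heterozygous libraries were above all 3 wild-type libraries, but the gap between the nearest libraries was small (899 against 904). The SD of Ocln was 3.08% of its mean in Gfi1+/+ and 1.68% in Gfi1cre/+, both under its counting error of 3.76% at its fewest reads. The log2 fold change was 0.07 with an interval of -0.06 to 0.19. A two-sided exact permutation test gave p = 0.1, the smallest that 3 against 3 libraries allow. Such separation was seen for 7.52% of all genes tested, in either direction. Marker lists of cell types moved in both directions. Cochlear epithelial genes had 2 higher and 4 lower means in Gfi1cre/+, as did supporting cell genes. Hair cell genes had 2 higher and 6 lower, and stria intermediate cell genes 1 higher and 3 lower. Of the stria marginal cell genes, 5 of 5 had higher means in Gfi1cre/+, 1 of them (Kcne1, log2 fold change 0.13) with an unadjusted limma p under 0.05, and their sums were 41264 to 45017 in Gfi1+/+ and 44932 to 46996 in Gfi1cre/+. Of the endothelial genes, 5 of 5 had higher means too, 2 of them (Pecam1 at 0.17 and Tek at 0.18) under that limit, with sums of 4192 to 4955 and 4446 to 5278. An unadjusted limma p under 0.05 was seen for 3.04% of all genes tested. All 5 bone genes also had higher means, 0 of them with an unadjusted limma p under 0.05. Their sums were 22421 to 48735 in Gfi1+/+ and 36428 to 40509 in Gfi1cre/+, inside the wild-type range. Across all genes tested, 49.9% had a higher mean in Gfi1cre/+. The part of any of these cell types in the Ocln values was not tested.

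Marveld2, which encodes tricellulin, had the largest fold change of the 8 genes. Its normalized reads were 307, 318 and 321 in Gfi1+/+ and 362, 312 and 360 in Gfi1cre/+. Replicates 1 and 3 of Gfi1cre/+ were above all wild-type libraries, while replicate 2 lay among them. The log2 fold change was 0.12 with an interval of -0.06 to 0.31 and an unadjusted p of 0.162 in the limma fit. Without Gfi1cre/+ replicate 2 the log2 fold change was 0.20 and the unadjusted limma p was 0.0425, when 1.49% of all genes tested had an unadjusted p under 0.05, and the adjusted p still missed 0.05. Marveld2 is 192 bases from its neighbour Rad17, a gene of the DNA damage response, which was at 292 to 303 in Gfi1+/+ and 290 to 321 in Gfi1cre/+.

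Neither angulin gene passed the test. Ildr1 was at 1126, 956 and 1232 normalized reads in Gfi1+/+ and at 1095, 1024 and 1145 in Gfi1cre/+. All heterozygous values of Ildr1 lay inside the wild-type range, and the log2 fold change was -0.02 with an interval of -0.22 to 0.19. Lsr was at 380, 443 and 408 in Gfi1+/+ and at 413, 418 and 432 in Gfi1cre/+, again inside the wild-type range, with a log2 fold change of 0.04 and an interval of -0.13 to 0.21. The Lsr values carry a limit of their own. Of its 2172 exonic bases, 971 (44.7%) overlap the antisense genes Gm17077 and Gm4673, and the strand setting of the counting was not given in the sources used here. Gm4673 was listed with 59 to 90 recovered reads, and the other 7 genes share no exonic base with another gene.

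Tjp1, the scaffold ZO-1, had the smallest standard error. It was at 3887, 4017 and 3830 normalized reads in Gfi1+/+ and at 3877, 4145 and 4082 in Gfi1cre/+. Replicates 2 and 3 of Gfi1cre/+ were the highest of the 6 libraries, and replicate 1 lay within the wild-type range. The log2 fold change was 0.04 with a standard error of 0.0531 and an interval of -0.08 to 0.16.

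**Figure D3:**
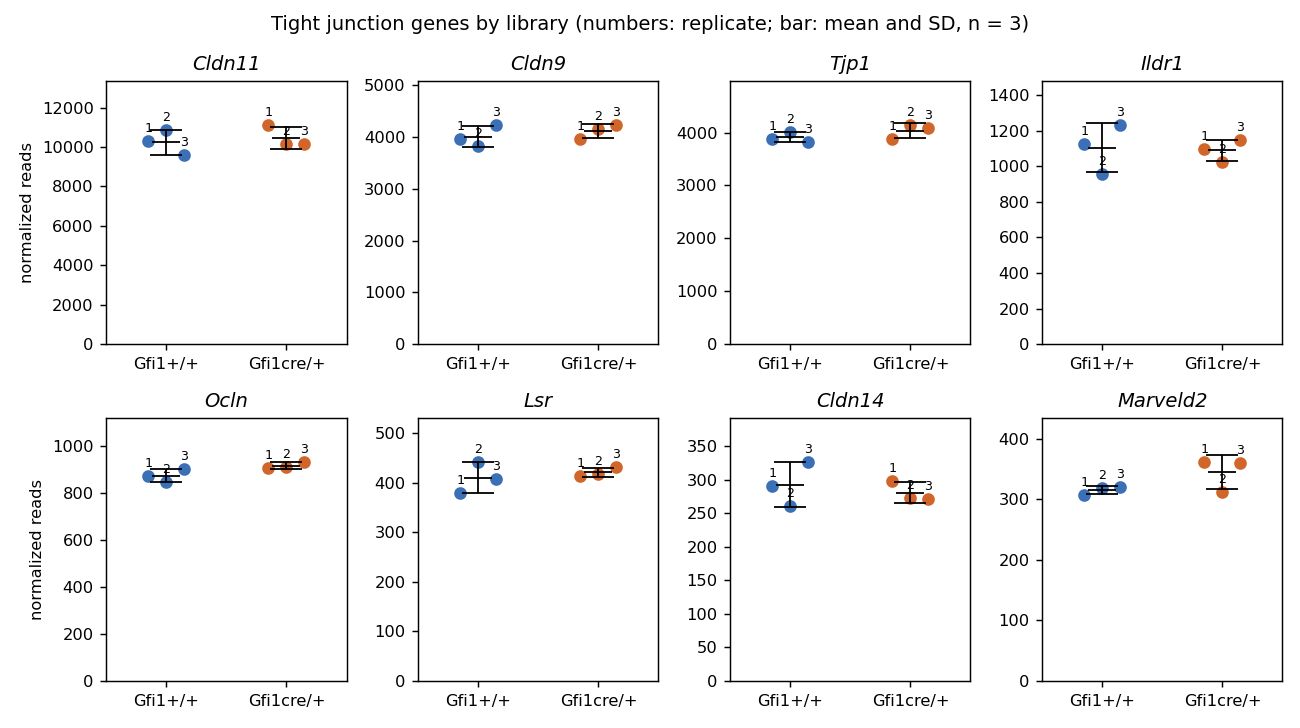
Normalized reads of the 8 genes, ordered by level per kilobase, in each library (points, numbered by replicate), with the mean and SD of each genotype (n = 3). The genotypes are separate for Ocln (845 to 899 against 904 to 932) and overlap for the other 7 genes.

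The spread among libraries was itself unequal between genotypes. The SD of the log2 values was smaller in Gfi1cre/+ for 6 of the 8 genes, Marveld2 and Tjp1 being the exceptions. Across all genes tested the median SD was 0.119 in Gfi1+/+ and 0.0735 in Gfi1cre/+. Pooling of 3 mice per library and greater depth both go with Gfi1cre/+, and the cause of the difference in spread was not tested. Ildr1 had the widest wild-type spread, with an SD of 12.6% of its mean against 5.59% in Gfi1cre/+. Marveld2 went the other way, from 2.25% in Gfi1+/+ to 8.32% in Gfi1cre/+, beside a counting error of 6.34% at its fewest reads. Within Gfi1+/+, Cldn9, Cldn14 and Ildr1 were each highest in replicate 3 and lowest in replicate 2, and Cldn11 was the opposite.

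To set the genes beside each other, levels were divided by the length of the annotated exons. Cldn11 led with a mean of 5540 ± 292 normalized reads per kilobase (SD, n = 6 libraries), 1.97 times the level of Cldn9, at 2813 ± 115. Cldn11 was at or above 99.1% of the genes tested on this scale, and Cldn9 at or above 98.2%. Tjp1 followed at 509 ± 16.2. Ildr1 was at 255 ± 22.5, Ocln at 212 ± 7.20 and Lsr at 191 ± 9.96, and the libraries of Ocln and Lsr overlapped, so that their order was not resolved. Cldn14, at 135 ± 11.3, and Marveld2, at 97.6 ± 7.28, were lowest, Marveld2 being near the middle of all genes at 46.4%. The other neighbours in this order did not overlap in any library. Dividing by the longest transcript instead raised Cldn14 to 197 and put it above Lsr, at 192, while the other ranks held. From Cldn11 to Marveld2 the levels per kilobase spanned 56.8-fold.

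**Figure D4:**
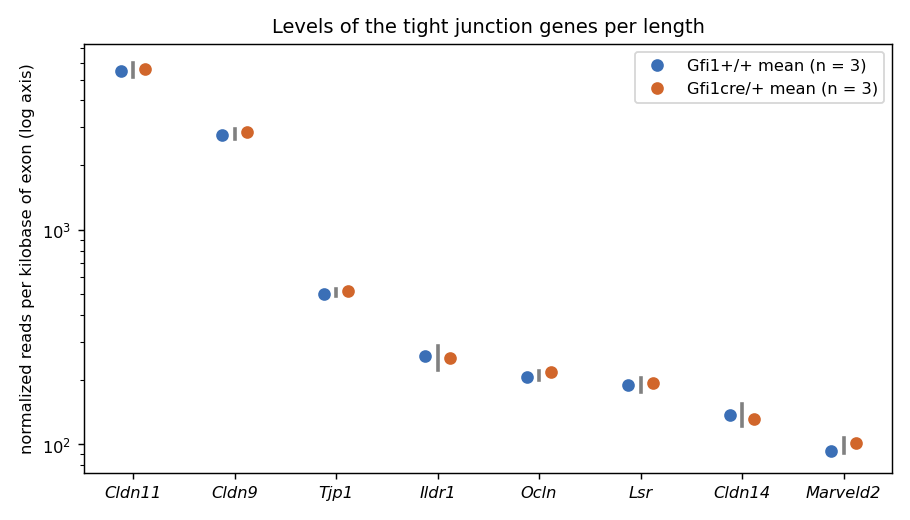
Level of each of the 8 genes in normalized reads per kilobase of annotated exon (log axis), as means of Gfi1+/+ and of Gfi1cre/+ (n = 3 libraries each), with a grey bar from the lowest to the highest of the 6 libraries. Levels fall from 5540 for Cldn11 to 97.6 for Marveld2, and the bars of Ocln and Lsr overlap.

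Among the 18 claudins in the table, Cldn11 and Cldn9 were the most abundant per kilobase. Cldn11 made up 41.5% of their summed level and Cldn9 21.1%. Cldn3, a sealing claudin of many epithelia, came next at 9.36%. Cldn14 was in 14th place with 1.01%. These shares moved little between libraries, from 39.5% to 43.7% for Cldn11, from 19.5% to 22.6% for Cldn9 and from 0.901% to 1.18% for Cldn14.

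Other genes of the tight junction were taken from a list of 51, of which 44 were tested. Cldn10, Cldn15, Cldn16, Cldn17, Cldn18, Cldn20 and Cldnd1 were not analysed here. By limma, 0 of the 44 passed an adjusted p of 0.05 and 1 passed an unadjusted p of 0.05, or 2.27% against 3.04% of all genes tested. Without Gfi1+/+ replicate 3 the second count was 7, when 2340 of all 14455 genes passed that limit. Means were higher in Gfi1cre/+ for 27 and lower for 17, the median log2 fold change was 0.03, and 2 genes (4.55% against 7.52%) did not overlap between genotypes, Cldn13 and the polarity gene Pard6b.

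By role, the genes most abundant per kilobase had log2 fold changes between -0.03 and 0.13. Of the 14 other claudins tested, Cldn3 had a log2 fold change of 0.03 and Cldn5, the claudin of endothelium, one of 0.04. Marveld1 and Marveld3, relatives of occludin, were at 0.13 and -0.02. Jam3 and F11r, adhesion molecules of the junction, were at 0.01 and 0.04. The scaffold gene Cgnl1, for paracingulin, was at 0.03. The polarity genes Crb3 and Lin7c were at -0.02 and -0.03. Pard6b was at 0.14, with normalized reads of 314 to 337 in Gfi1+/+ and 343 to 368 in Gfi1cre/+.

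Cldn13, a mouse claudin made by erythroid cells, was the 1 gene of the 44 with an unadjusted p under 0.05. Its recovered reads were 1, 0 and 5 in Gfi1+/+ and 47, 9 and 11 in Gfi1cre/+. All heterozygous libraries were above all wild-type libraries, with 1 of the 3 holding most of the reads. The fitted log2 fold change was 2.75 (unadjusted p = 0.0325 and adjusted p = 0.999 in the limma fit), a value that depends on the added pseudocount of 1 at so few reads. The p missed 0.05 without any 1 of the 3 Gfi1cre/+ libraries, and also without Gfi1+/+ replicate 2. Beside it, 5 of 5 erythroid genes had higher means in Gfi1cre/+ with an unadjusted limma p under 0.05. Across all genes tested, 49.9% had a higher mean and 3.04% passed that limit in either direction. An adjusted p under 0.05 was reached by 0 of the 5. Their sums overlapped between genotypes, at 16149 to 22657 in Gfi1+/+ and 20735 to 36035 in Gfi1cre/+. The part of erythroid cells in the Cldn13 values was not tested.

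**Figure D5:**
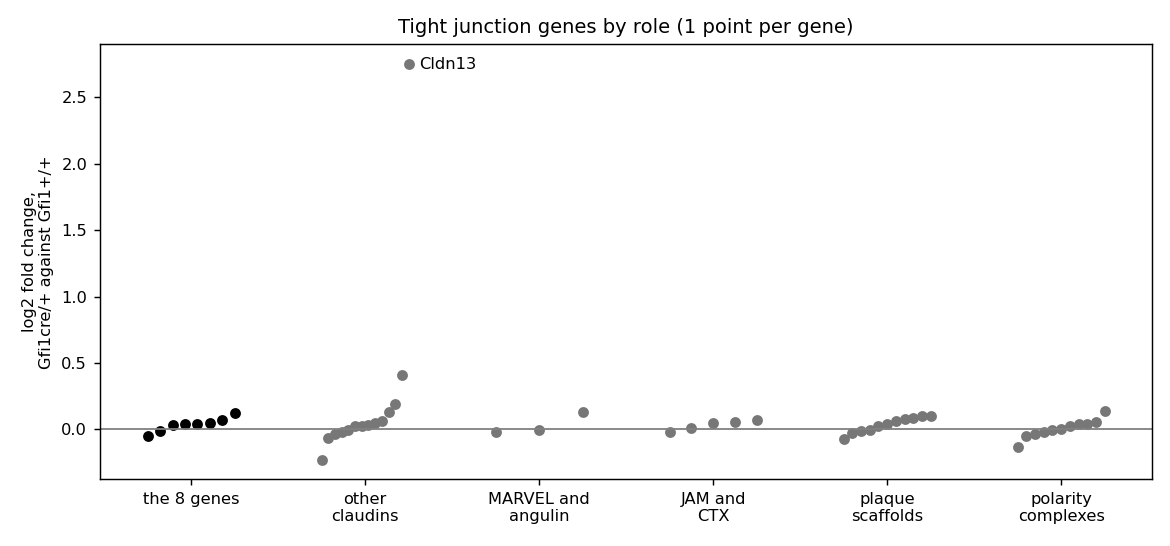
Log2 fold change, Gfi1cre/+ against Gfi1+/+, of the 8 genes (black) and of the 44 other tight junction genes tested (grey) by role, 1 point per gene in rising order within a role. The 8 genes lie between -0.05 and 0.12, and Cldn13, at 2.75, is the highest of all.

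Across the 6 libraries, the genes whose log2 level moved most like each of the 8 were found among 10345 other genes that averaged 200 normalized reads or more, each symbol being used once. Pearson's r was 0.994 between Cldn9 and Gramd4, followed by Gm8086 at 0.993. Ocln was closest to Nmt1 at 0.997 and Nuak1 at 0.982. For Ildr1 they were Wasl and Ell2, both at 0.991, and for Tjp1 they were Gm9755 at 0.995 and Arhgef38 at 0.989. With 6 points such values arise for many genes. Cldn9 had an r over 0.9 with 278 of the 10345 genes (2.69%), and Marveld2, the lowest of the 8 in this respect, with 33 (0.319%). Cldn14 was closest to Rap1gap2 at 0.990 and Cyp27a1 at 0.989, and Cldn11 to Sin3b at 0.988 and Rabepk at 0.983. For Lsr they were Siah2 at 0.985 and Col8a2 at 0.984, and for Marveld2 they were Ccdc88a at 0.969 and Ppil1 at 0.966. The points share library depth and tissue makeup, and none of the 16 genes was another of the 8 or on the list of 51.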

How the data were processed

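Polyadenylated RNA was extracted from cochlear ducts and sequenced from 6 libraries, 3 per genotype. Per the labels and methods, the authors aligned reads to mm10 with TopHat and counted them on genes with HTSeq. Versions, annotation and strand setting were not given in the sources used here. The deposited signal per gene and library is described as quantile-normalized, yet 100% of values were whole multiples of 1 step per library (tolerance 0.1), that is, read counts divided by a size factor. Values were used as deposited, called normalized reads here. Genes that reached 40 normalized reads anywhere were tested on log2(value + 1) with limma 3.58.1 (R 4.3.3), with genotype as the only term, a trend and Benjamini-Hochberg adjustment, two-sided. Fold changes are on that scale. DESeq2 1.42.0 and edgeR 4.0.16 on recovered reads, other pseudocounts, filters and scalings, and leaving out each library were alternatives. The limma step was tested on simulated data. The 8 genes and all lists were chosen with earlier results of these data known. Named besides the 8 were list genes with an unadjusted p under 0.05, the 2 most abundant per role, those not analysed, and the 2 genes most alike to each of the 8. Pard6b was named after its values were seen, and 1 gene that this rule takes is not reported here. Levels per kilobase used exon unions of GENCODE M21. The floor of 3 reads covers counting error only. Nothing in the labels says how the libraries were distributed over litters or days.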

Additional observations from a re-analysis of the deposited data

How the results depend on the processing

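Over 16 alternative settings, 0 of the 128 values of the 8 genes had an adjusted p under 0.05, and 7 changed sign, all of them when a library was left out. Leaving out each library in turn, the log2 fold change ranged from -0.115 to 0.0675 for Ildr1, from -0.0138 to 0.0745 for Cldn11, from -0.0138 to 0.0960 for Lsr and from -0.134 to 0.0292 for Cldn14. Their directions are thus unsettled. Those of the other 4 held in all 16 settings, but their sizes moved over the left-out libraries, from 0.00733 to 0.0789 for Cldn9, from 0.0247 to 0.0728 for Tjp1, from 0.0462 to 0.0907 for Ocln and from 0.0873 to 0.195 for Marveld2. The count of the 8 genes with an unadjusted p under 0.05 ranged from 0 to 1 over the left-out libraries, and the 1 was Marveld2 without Gfi1cre/+ replicate 2, when 216 of all 14455 genes (1.49%) passed. The median of the 8 stayed between 0.03 and 0.06. For the other tight junction genes, the count with an unadjusted p under 0.05 was 0 when a mean of 200 normalized reads was required, 0 with the replicate number as a block, and ranged from 0 to 7 over the left-out libraries. The 7 came without Gfi1+/+ replicate 3, when 2340 of all genes passed that limit and 48 passed the adjusted limit, against 439 and 4 with all libraries. The adjusted count over all genes was 0 under that same minimum and without Gfi1cre/+ replicate 3 (229 and 248 unadjusted), 10 by DESeq2 and 4 by edgeR. The cause was not tested. Replicate numbers did not pair the libraries, since same-numbered libraries correlated at -0.0944, 0.107 and -0.0326 in their deviations from the genotype means, and the replicate block called 0 of the 8 genes at either limit. At the fewest reads, counting error ran from 1.09% for Cldn11 to 6.52% for Cldn14. The SD in Gfi1+/+ was above it for 6 of the 8 genes and below it for Marveld2 (2.25% against 6.34%) and Ocln (3.08% against 3.76%).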
